A study of Mus musculus with 12 samples.

Results

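The genes described here encode the Nodal signalling pathway at each step from ligand to feedback. They are the ligands Nodal and Gdf3, the co-receptor Tdgf1, the receptors Acvr1b and Acvr2b, the transducers Smad2 and Foxh1, and the antagonists Lefty1, Lefty2 and Smad7. Members were chosen by gene symbol, with earlier results of these data known. Each of the 10 had exactly 1 probe set annotated to it alone, out of 19938 genes with such a probe set, and all 10 were bright enough to be among the 15950 genes tested.

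Nodal is a secreted protein of the TGF-beta family that acts in the early mouse embryo. It binds a type II and a type I activin receptor together with a membrane-bound co-receptor, the receptors phosphorylate Smad2 or Smad3, and these enter the nucleus with Smad4 and act with DNA-binding partners such as Foxh1. The pathway keeps the epiblast from neural fate, specifies mesoderm and endoderm at the primitive streak, and induces its own ligand and its own Lefty inhibitors.

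Expression was measured on 12 Affymetrix Mouse Gene 1.0 ST arrays of embryoid bodies, floating balls of differentiating embryonic stem (ES) cells. Both lines were made in A2lox ES cells, strain background 129P2/OlaHsd, grown on irradiated fibroblast feeders that were removed before aggregation. In the knockdown line, doxycycline (dox, 0.5 µg/ml) turned on microRNAs against the transcript of Geminin, a replication and chromatin regulator encoded by Gmnn. It was given from day 0, and 3 samples with and 3 without dox were collected on day 4. In the overexpression line dox turned on Geminin from day 3. Replicates 1 and 2 were collected on day 5 and replicate 3 on day 4, each as 1 sample with and 1 without dox. The series concerns Geminin and the acquisition of mesendoderm fate, to which Nodal signalling is central. The labels do not say whether replicates were separate cultures or whether a line was 1 clone, so a p-value here is set against the scatter of these samples alone, and that scatter may be technical.

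Levels are log2(intensity + 1) after quantile normalization. A level belongs to its own probe set and is not compared between genes. In whole embryoid bodies, fewer cells of a type and less RNA per cell cannot be told apart. Gmnn itself differed by -0.50 ± 0.14 (SE) with dox in the knockdown line and by 0.82 ± 0.14 in the overexpression line, with no overlap between dox and control arrays in either. Neither difference was called after limma's Benjamini-Hochberg adjustment over all genes (adjusted p = 0.965 and 0.922). Day 4 controls of the knockdown line averaged 10.18 for Gmnn, and the overexpression line's single day 4 control was at 10.35. The single gene called for dox, in both lines, was Hprt, at 3.81 ± 0.33 and 3.44 ± 0.33 (limma adjusted p = 0.00387 and 0.0105). The stem cell and epiblast factor Pou5f1 lay between 11.96 and 12.77 in all arrays, and the primitive streak gene Mixl1 between 7.03 and 11.94. Of 8 feeder fibroblast genes, 6 were bright enough to be tested, among them Col1a1 at 8.02 to 9.47 and Pdgfrb at 7.25 to 8.47 over all arrays. Postn and Lum lay below 6.46, the level under which genes were not tested, in every array, and the list's mean ran from 7.10 to 7.63.

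Promoter sequence was held for 4 of the 10 members in the RefSeq table used here (GRCm38.p6). The 250 bases before the start of Nodal, the ligand, and of Tdgf1, its co-receptor, are shown because the pathway acts on its own components through DNA-binding partners that recognise short motifs. Capitals mark matches, on either strand, to the Smad box CAGAC and to AATNNACA, searched as the FoxH1 core with any base at N. The first lies at chr10:61417722-61417971 on the plus strand and the second at chr9:110946159-110946408 on the minus strand, both printed 5′ to 3′ towards the gene.
Nodal: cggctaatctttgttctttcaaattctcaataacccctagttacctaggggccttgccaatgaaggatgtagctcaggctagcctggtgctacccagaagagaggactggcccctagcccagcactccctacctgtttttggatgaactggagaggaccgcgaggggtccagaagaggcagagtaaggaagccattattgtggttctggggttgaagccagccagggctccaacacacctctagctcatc
Tdgf1: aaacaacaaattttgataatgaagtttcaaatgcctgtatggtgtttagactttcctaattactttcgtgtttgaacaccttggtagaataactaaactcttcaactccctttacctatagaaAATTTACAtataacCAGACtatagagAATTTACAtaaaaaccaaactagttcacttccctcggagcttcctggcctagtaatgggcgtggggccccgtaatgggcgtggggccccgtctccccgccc
The Tdgf1 window matched the FoxH1 core letters 2 times, beginning 127 and 101 bases before the start, with 1 Smad box between them at 113 bases. Both matches read AATTTACA, and whether FoxH1 accepts T at the free positions was not tested. The Nodal window held neither motif, nor did that of Acvr1b, and the Acvr2b window held 1 Smad box and no FoxH1 core. Over all 32851 promoter windows of this length, 10.9% held the FoxH1 core and 42.2% the Smad box on either strand. A match is a run of letters and not a site shown to be bound.

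In the main fit, which does not pair arrays by replicate number, no member differed between dox and control beyond the spread between arrays. This held in both lines. With a block for each same-numbered pair, 0 members were called. That fit gave an unadjusted limma p of 0.014 for Gdf3 and 0.025 for Smad7 in the overexpression line. There 572 of 15950 tested genes were under 0.05. Counts and intervals below are of the main fit unless a block is named. In the knockdown line limma called 0 of 10 members, where 0.00627% of all tested genes were called, and 0 had an unadjusted p under 0.05 against 3.76% of all tested genes. Their log2 differences ran from -0.13 to 0.13, with a median of -0.016 beside 0.010 over all tested genes. For 9 of 10 members the 95% interval lay within a 1.5-fold change in either direction, Lefty1 being the exception. In the overexpression line limma again called 0 of 10 (0.00627% of tested genes) and 0 had an unadjusted p under 0.05 (0.934% of tested genes), with differences from -0.08 to 0.28 and a median of 0.033 beside 0.014 over all tested genes. There the interval lay within 1.5-fold for 7 members, not for Gdf3, Lefty1 and Smad7. Marker lists had medians further from 0 with dox in the knockdown line, with 0 of their genes called. The ES cell gene Zfp42 alone had an unadjusted limma p under 0.05 (-0.80 ± 0.23). The median was -0.50 over 7 undifferentiated ES cell genes and 0.60 over 6 epiblast and primitive streak genes. For 8 visceral and primitive endoderm genes it was -0.34. In the other line these medians were 0.20, -0.07 and -0.02. Their part in the members' values was not tested. The interval of the difference is given with each gene below, because an adjusted p that misses the threshold does not show equal levels.

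**Figure D1:**
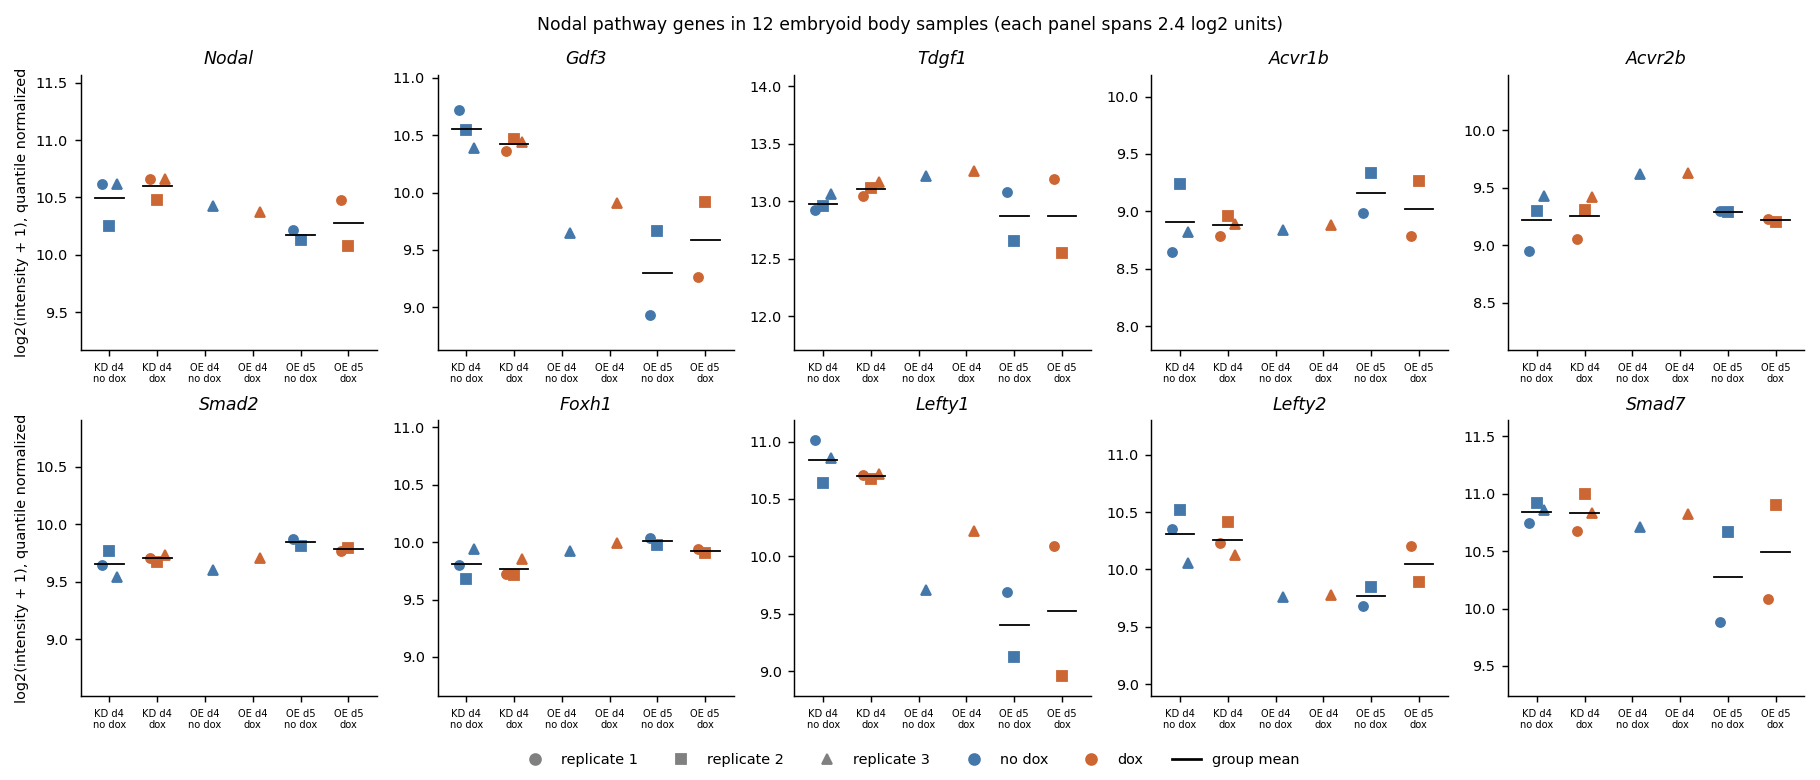
Each panel plots 1 gene's log2(intensity + 1) level after quantile normalization in the 12 samples, grouped by line (KD knockdown, OE overexpression), day (d4, d5) and dox, with the replicate number as the symbol and a line for the mean of groups with over 1 sample. Smad2 and Foxh1 span 0.34 and 0.36 log2 units over all arrays, while Gdf3 and Lefty1 span 1.79 and 2.06 and are lower in every overexpression line sample than in any knockdown line sample.

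Among the ligands, Nodal stood at 10.61, 10.25 and 10.61 in the knockdown line's control replicates 1, 2 and 3 and at 10.66, 10.47 and 10.66 with dox. Control replicate 2 was the low array, and the groups overlapped. The difference was 0.10 ± 0.13 (SE), with an interval from -0.19 to 0.40 (limma adjusted p = 0.965, exact two-sided permutation p = 0.5, where 0.1 is the smallest possible). Overexpression line samples of day 5 gave Nodal levels of 10.22 and 10.13 without and 10.48 and 10.08 with dox, and the day 4 pair gave 10.42 and 10.37. Only replicate 1 was higher with dox, and the fitted difference was 0.05 ± 0.13 (interval -0.24 to 0.35, limma adjusted p = 0.9999).

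Gdf3, a second ligand of the family that acts through the same co-receptor and receptors, stood at 10.72, 10.55 and 10.39 without and 10.36, 10.47 and 10.44 with dox in the knockdown line. These groups overlapped and differed by -0.13 ± 0.20 (interval -0.57 to 0.31, limma adjusted p = 0.967). The overexpression line had Gdf3 at 8.93 and 9.66 without and 9.26 and 9.92 with dox on day 5, and at 9.65 and 9.91 on day 4. Each dox array was above its own same-numbered control, by 0.33, 0.25 and 0.26, but the dox array of replicate 1 was below the controls of replicates 2 and 3. The fitted difference was 0.28 ± 0.20 (interval -0.16 to 0.72, limma adjusted p = 0.9999), and it was 0.07 without control replicate 1 of day 5 and 0.49 without control replicate 2.

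Tdgf1, also called Cripto, is the cell-surface co-receptor that Nodal and Gdf3 need. It stood at 12.92, 12.96 and 13.06 without and 13.05, 13.12 and 13.17 with dox in the knockdown line, higher with dox in each of the same-numbered pairs but with overlapping groups. The difference was 0.13 ± 0.16 (interval -0.22 to 0.48, limma adjusted p = 0.965). The overexpression line gave 13.08 and 12.66 without and 13.19 and 12.55 with dox on day 5, and 13.22 and 13.26 on day 4. Its dox difference was 0.012 ± 0.16 (interval -0.34 to 0.36).

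The type I receptor Acvr1b, or ALK4, was lowest in knockdown control replicate 1 at 8.65 and highest in the day 5 control replicate 2 at 9.33. Its dox difference was -0.03 ± 0.17 in the knockdown line and -0.08 ± 0.17 in the overexpression line. The type II receptor Acvr2b stood at 8.95, 9.29 and 9.43 without and 9.05, 9.30 and 9.42 with dox in the knockdown line, so that arrays of equal number lay closer together than arrays of equal treatment. Its dox difference was 0.04 ± 0.13 there and -0.05 ± 0.13 in the overexpression line. The signal-transducing Smad2 lay between 9.54 and 9.87 in all 12 arrays, with dox differences of 0.05 ± 0.09 and -0.0047 ± 0.087. Foxh1, the forkhead partner that takes activated Smads to their target genes, lay between 9.68 and 10.04, with dox differences of -0.05 ± 0.09 and -0.03 ± 0.09. The interval allowed for Foxh1 ran from -0.25 to 0.16 and from -0.24 to 0.17.

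The Lefty proteins are secreted inhibitors that bind Nodal and its co-receptor. Their genes are close paralogs, and whether their probe sets share signal was not tested. Lefty1 stood at 11.01, 10.64 and 10.85 without and 10.71, 10.68 and 10.72 with dox in the knockdown line. The dox arrays fell within 0.1 of each other and inside the range of the controls, and the difference was -0.13 ± 0.25 (interval -0.69 to 0.42, limma adjusted p = 0.972). Day 5 levels in the overexpression line were 9.69 and 9.12 without and 10.09 and 8.96 with dox, and day 4 levels were 9.71 and 10.22. Replicates 1 and 3 were higher with dox and replicate 2 was lower, which gave a fitted difference of 0.25 ± 0.25 (interval -0.31 to 0.81, limma adjusted p = 0.9999). Without dox replicate 1 of day 5 it was -0.04.

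Lefty2 stood at 10.35, 10.52 and 10.06 without and 10.23, 10.41 and 10.13 with dox in the knockdown line, with a difference of -0.05 ± 0.14 (interval -0.36 to 0.26). For the overexpression line the values were 9.68 and 9.85 without and 10.20 and 9.89 with dox on day 5, and 9.76 and 9.78 on day 4. The dox array of replicate 1 was the only one clearly apart, and the fitted difference was 0.19 ± 0.14 (interval -0.12 to 0.51, limma adjusted p = 0.9999, two-sided exact permutation p = 0.167, below which the design cannot go). Smad7, the intracellular inhibitor that blocks Smad access to the receptors, stood at 10.74, 10.92 and 10.86 without and 10.68, 11.00 and 10.84 with dox in the knockdown line, a difference of -0.0048 ± 0.22. Its overexpression line levels were 9.88 and 10.67 without and 10.08 and 10.90 with dox on day 5 and 10.71 and 10.82 on day 4, a difference of 0.18 ± 0.22 (interval -0.32 to 0.68).

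**Figure D2:**
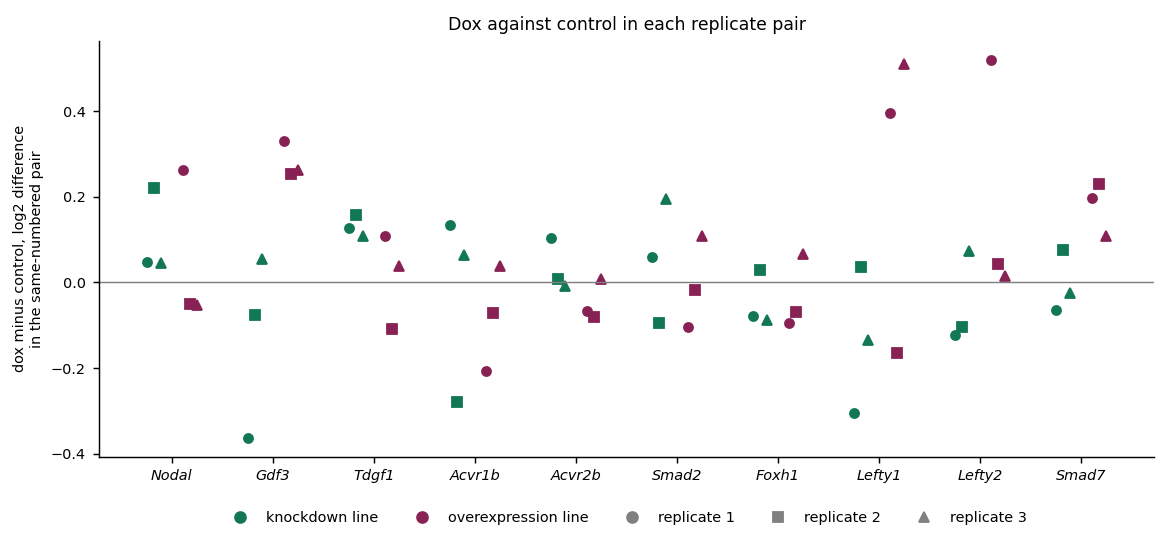
Dox minus control log2 difference of each gene in each same-numbered pair, in the knockdown line (green, 3 pairs on day 4) and the overexpression line (purple, replicates 1 and 2 on day 5, replicate 3 on day 4). Gdf3, Lefty2 and Smad7 are above 0 in all 3 overexpression pairs, and Nodal and Tdgf1 in all 3 knockdown pairs.

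By same-numbered pair, 2 of 10 members moved in 1 direction in all knockdown pairs, Nodal and Tdgf1, both higher. Over all tested genes 31.7% did so. Among overexpression pairs 3 of 10 did, Gdf3, Lefty2 and Smad7, all higher, against 27.1% of tested genes. The members' shares were thus close to those of the whole array. No member had all dox arrays on 1 side of all controls in either line (knockdown 8.22% and overexpression 3.79% of tested genes). The difference between the lines' dox effects was called by limma for 0 of 10 members (0% of tested genes), and 0 had an unadjusted p under 0.05 (2.13% of tested genes). Its largest values were those of Gdf3, at -0.41 ± 0.28, and Lefty1, at -0.38 ± 0.36, knockdown minus overexpression. For Gdf3 it was -0.62 without day 5 control replicate 2 and -0.20 without control replicate 1, and for Lefty1 it was -0.74 without day 5 dox replicate 2 and -0.096 without dox replicate 1.

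The lines were also compared on day 4, a comparison added after the data were seen. Its overexpression side is the single replicate 3 pair, so line and this pair cannot be told apart. The fit counts same-numbered dox and control arrays as separate samples. Where such arrays are alike, the SE, interval and p given here are too small. Averaged over dox and control, Lefty1 stood at 10.77 in the 6 knockdown line arrays and 9.96 in the overexpression pair, a difference of 0.81 ± 0.25 or 1.75-fold (interval 0.25 to 1.36). Gdf3 was at 10.49 against 9.78 (0.71 ± 0.20, 1.63-fold) and Lefty2 at 10.28 against 9.77 (0.52 ± 0.14, 1.43-fold). Acvr2b went the other way, at 9.24 against 9.62 (-0.38 ± 0.13). These 4 had an unadjusted p under 0.05, between 0.0042 and 0.0155, where 11.3% of tested genes did. Limma called 0 of 10 after adjustment (0.408% of tested genes, adjusted p of these 4 from 0.185 to 0.298). Nodal itself differed by 0.15 ± 0.13 and Smad2 by 0.02 ± 0.09.

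In 5 of 10 members the knockdown arrays did not overlap the overexpression pair on day 4, the above 4 and Tdgf1 (-0.20 ± 0.16), where 16.5% of tested genes did not overlap. With the day 5 arrays included, Lefty1 lay between 10.64 and 11.01 in the knockdown line and between 8.96 and 10.22 in the overexpression line, and Gdf3 between 10.36 and 10.72 against 8.93 and 9.92. These 2 of 10 members had no overlap between all arrays of the lines, against 4.97% of tested genes. Marker levels differed between the lines as well. On day 4 the epiblast and primitive streak list (6 of 7 genes measured) averaged 7.64 to 9.77 over knockdown arrays and 10.23 and 10.35 in the overexpression pair. Limma called 1 of its genes, Mesp1, lower (-1.45 ± 0.16, adjusted p = 0.00724), and 5 of 6 were lower with an unadjusted p under 0.05. The undifferentiated ES cell list averaged 10.11 to 10.85 against 10.09 and 10.16, with 6 of 7 genes higher in the knockdown line (median 0.52, Zfp42 at 0.70 ± 0.23 and Esrrb at 1.24 ± 0.65). The visceral and primitive endoderm list (9 genes) averaged 7.63 to 8.74 against 7.48 and 7.54. Of 6 tested feeder genes, 2 were higher and 4 lower in the knockdown line, with a median of -0.11. The largest differences were those of Col1a1, at -0.48 ± 0.22, and Pdgfrb, at -0.47 ± 0.12. The part of these lists in the members' differences was not tested.

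**Figure D3:**
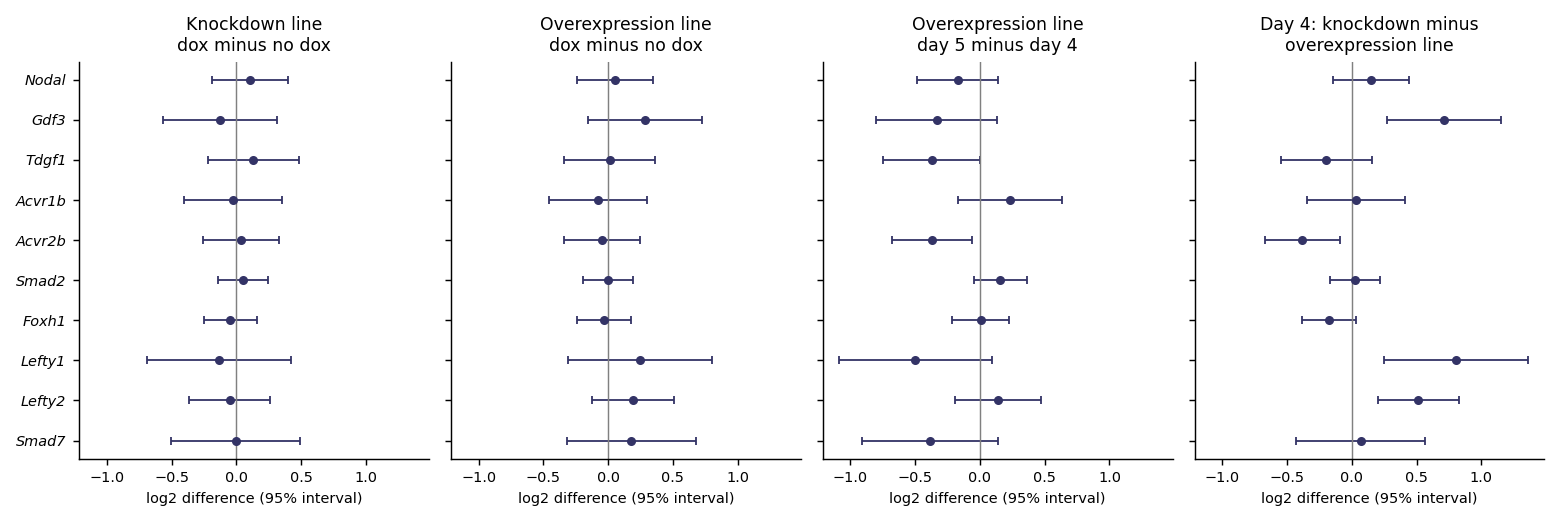
Fitted log2 difference of each gene in 4 comparisons, with its 95% interval from the limma model of all 12 arrays. Intervals for dox all include 0 in both lines in this fit, which has no replicate block. Those of Gdf3, Acvr2b, Lefty1 and Lefty2 leave 0 out between the lines on day 4 without passing adjustment over all genes. Same-numbered arrays count there as separate samples.

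Day 5 was set against day 4 within the overexpression line, where day and replicate 3 cannot be told apart. Same-numbered dox and control arrays again counted as separate samples, so SE and p may be too small. Limma called 0 of 10 members, against 0.558% of tested genes. Acvr2b had an unadjusted p under 0.05, as did 14.2% of tested genes, with a level of 9.21 to 9.30 in the 4 day 5 arrays and of 9.62 and 9.63 on day 4 (-0.37 ± 0.14, interval -0.68 to -0.06, limma adjusted p = 0.267). Tdgf1 was lower in all 4 day 5 arrays (-0.37 ± 0.17, limma adjusted p = 0.354) and Smad2 higher in all 4 (0.16 ± 0.09, limma adjusted p = 0.491). These 3 of 10 members were without overlap, against 30.5% of tested genes. Lefty1 differed by -0.50 ± 0.27, Smad7 by -0.39 ± 0.24 and Gdf3 by -0.33 ± 0.21, all with overlapping arrays. Without 1 array these ran from -0.71 (without dox replicate 1) to -0.23 (without dox replicate 2) for Lefty1. For Smad7 they ran from -0.57 (without dox replicate 2) to -0.21 (without control replicate 1), and for Gdf3 from -0.49 (without control replicate 2) to -0.18 (without control replicate 1). Tdgf1 was at -0.23 without dox replicate 2. Nodal differed by -0.17 ± 0.14 and Foxh1 by 0.0055 ± 0.099. Among marker genes limma called Pou5f1 lower on day 5 (-0.59 ± 0.10, adjusted p = 0.0383). Its list of 7 undifferentiated ES cell genes was split, with 3 higher and 4 lower. The largest differences there were upward and not called, Esrrb at 1.04 ± 0.68 and Tfcp2l1 at 0.91 ± 0.55. List medians were -0.08 for undifferentiated ES cell, -0.40 for epiblast and primitive streak, 0.28 for visceral and primitive endoderm and 0.33 for feeder genes, and their part in the members' values was not tested.

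Day 5 replicates 1 and 2 of the overexpression line are described next, with no test. Lefty1 was higher in replicate 1, by 0.57 without and 1.13 with dox, and only 1.07% of tested genes differed more between the dox arrays. Tdgf1 was higher in replicate 1 by 0.43 and 0.65, and Nodal by 0.09 and 0.40. Smad7 was lower in replicate 1, at 9.88 against 10.67 and 10.08 against 10.90, and Gdf3 was at 8.93 against 9.66 and 9.26 against 9.92. In all, 6 of 10 members separated the replicates in both dox states, Nodal, Tdgf1 and Lefty1 higher in replicate 1 and Gdf3, Acvr1b and Smad7 higher in replicate 2. Over all tested genes 66.9% did so. Foxh1, Smad2 and Acvr2b differed by at most 0.07 between these replicates.

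In the knockdown line 7 of 10 members separated replicates 1 and 2 (56.1% of tested genes), with Nodal higher in replicate 1 by 0.36 without and 0.19 with dox, Lefty1 by 0.37 and 0.03, and Acvr1b lower at 8.65 against 9.24 and 8.78 against 8.96. Nodal and Acvr1b controls and Acvr2b lay further apart there than on day 5 of the other line, and Lefty1 and Smad7 lay closer. Gdf3 and Tdgf1 overlapped. In both lines replicate 2 had the lower mean of streak markers and the higher mean of visceral and primitive endoderm markers. The epiblast and primitive streak mean was 8.92 in replicate 1 and 7.64 in replicate 2 of the knockdown controls, and 10.28 and 9.55 in the day 5 controls. The visceral and primitive endoderm mean was 7.89 and 8.74, and 7.70 and 8.06. In the day 5 controls Afp, Ttr and Amn of that list were lower in replicate 2 (Amn 9.06 against 9.61). Its other genes were higher there (Cubn 9.30 against 7.71). The undifferentiated ES cell mean, over 7 genes, was 10.68 and 10.85, and 9.85 and 10.51. The part of these markers in the members' values was not tested.

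**Figure D4:**
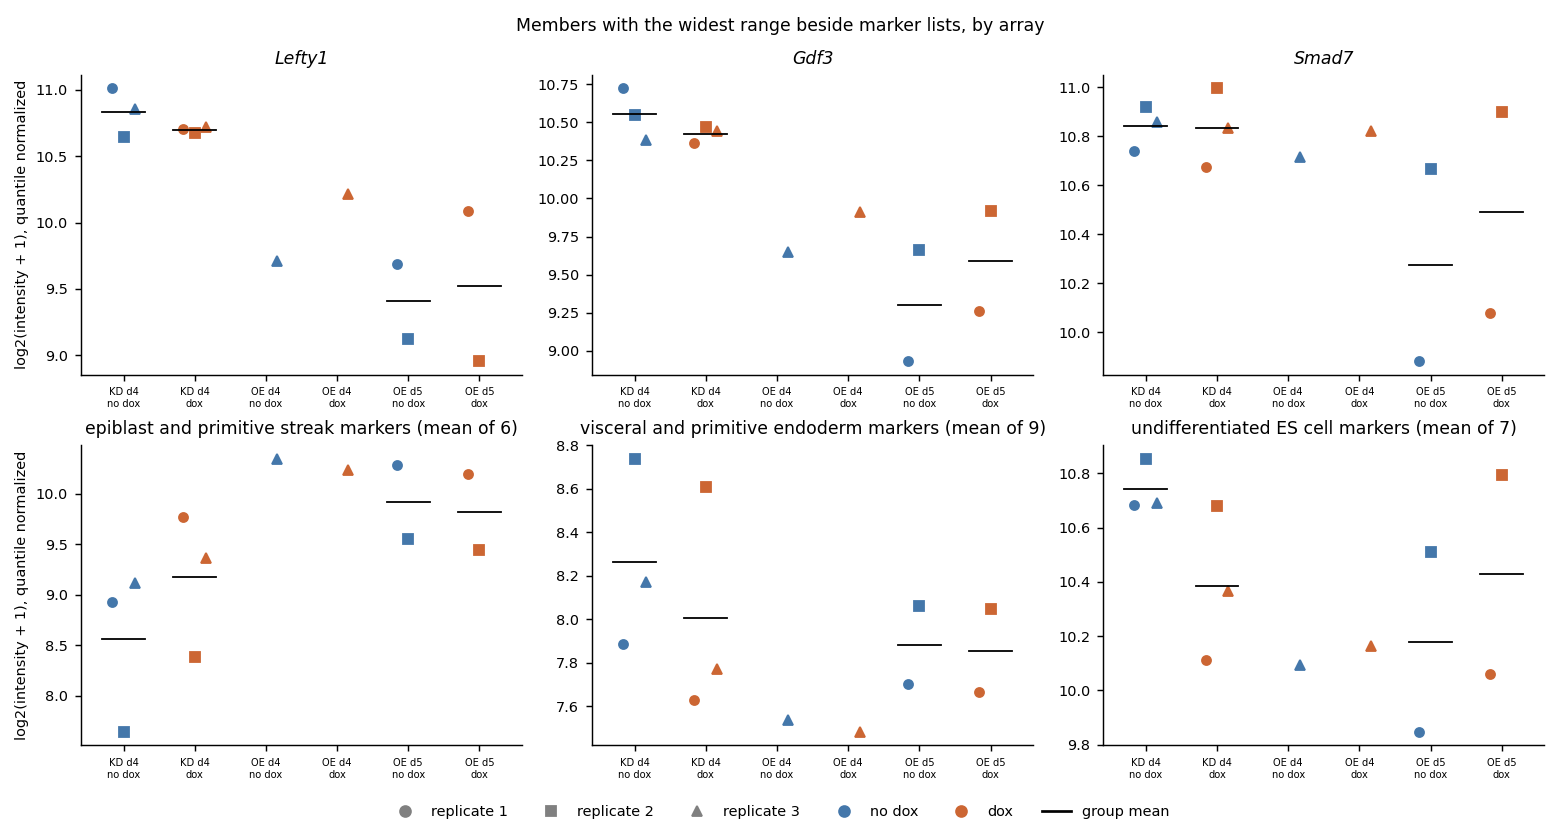
Levels of Lefty1, Gdf3 and Smad7, the members with the widest range over the 12 samples, above the mean log2 level of 3 marker lists, by line, day and dox, with the replicate number as the symbol. In the day 5 samples replicate 2 (squares) is below replicate 1 for Lefty1 and the streak markers and above it for Gdf3, Smad7 and the other marker lists.

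The other genes of the pathway were taken from lists chosen with earlier results known. Limma called 0 of their members in every comparison made here. Of 5 measured genes for further ligands, convertases and co-receptors, 0 were higher with dox in the knockdown line and 5 lower (median -0.12 beside 0.010 over all tested genes), the largest being the activin subunit gene Inhbb at -0.36 ± 0.19. Among 5 extracellular antagonists, 4 were higher (median 0.21), with the activin-binding Fst at 0.74 ± 0.58 and the Nodal and BMP inhibitor Cer1 at 0.42 ± 0.56. With Geminin overexpressed 4 of these 5 were lower (median -0.05), Cer1 at -0.40 ± 0.56. Of 9 further receptors and transducers, 6 were higher with dox in the first line and 5 in the second, with medians of 0.08 and 0.03. Of 9 intracellular negative regulators, 6 and 4 were higher, with medians of 0.0029 and -0.0064.

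Of 13 measured response genes of Nodal and Activin, 11 were higher with dox in the knockdown line (median 0.45) and 4 in the overexpression line (median -0.19), and 0 had an unadjusted p under 0.05 in either. The homeobox gene Mixl1 led in the knockdown line at 0.91 ± 0.77, followed by the T-box gene Eomes at 0.88 ± 0.56. Between day 5 and day 4 the nearest to a call among the pathway lists was the endoderm factor Sox17, at 1.79 ± 0.34 (limma adjusted p = 0.0514), followed by the Smad inhibitor Skil at -0.51 ± 0.11 and the pseudoreceptor Bambi at 0.72 ± 0.15 (adjusted p = 0.0665 and 0.0666). The co-receptor Cfc1 was at 0.65 ± 0.16 (adjusted p = 0.102) and the second receptor Smad, Smad3, at 0.46 ± 0.11 (adjusted p = 0.0933). The share of all genes called there was 0.558%.

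Genes whose pattern was most like that of a ligand or inhibitor were ranked by Pearson r over the 12 arrays, which share lines, days and replicates, so r is a description with no p. For Nodal the 5 highest were Stk4 (r = 0.94), Snu13, Tatdn2, Kcnk1 and the epiblast and neural POU factor Pou3f1 (each r = 0.92). Within the lines, over 6 arrays each, Pou3f1 followed Nodal with r = 0.93 (knockdown) and 0.84 (overexpression). For Lefty1 they were Tuba4a (r = 0.98), Crip1, Msto1, Dhps and Mrrf (r = 0.95 for the last). Mrrf followed Lefty1 at r = -0.12 within the knockdown line and 0.93 within the overexpression line. For Lefty2 they were Acd (r = 0.92), Rhoc and Ostf1 (each 0.91), Cabcoco1 and Bst2 (each 0.89).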

How the data were processed

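Per the labels' protocols, total RNA (1 µg) was biotin-labelled and hybridised. The authors deposited linear intensities, 1 per probe set (35512) and array. How they were summarised and normalized is not given in the sources used here. Means per array were 677.3 to 696.6 and medians 145.3 to 182.2.

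Values were taken as log2(intensity + 1). Array medians then spanned 0.32, above the limit of 0.1, so arrays were quantile normalized. Probe sets naming 1 gene (21789) were used, the brightest per gene, and genes with a mean below the 20th percentile (6.46) were not tested. Limma 3.58.1 (R 4.3.3) fitted all 12 arrays with a baseline per line and day and 1 dox effect per line, with 7 residual and 3.5 prior degrees of freedom. The Benjamini-Hochberg threshold was 0.05. For single genes, dox labels were also permuted exactly within each line and day. The fit was also run on simulated data with independent noise for each array. That run does not cover same-numbered arrays that are alike. Members and lists were chosen with earlier results of these data known. Named were the 10 members, at most the 2 largest effects per list, and the 5 genes most like Nodal, Lefty1 or Lefty2, predicted genes left out. Gdf1 and T, with no probe set annotated to them alone, were not analysed here.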

Additional observations from a re-analysis of the deposited data

How the results depend on the processing

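The count of 0 members called held under each of the 18 to 21 alternatives run for each comparison, and the smallest adjusted p of a member was 0.071. Over all tested genes, limma called at most 1 for dox in either line and 0 for the difference under any alternative. A count of 0 among 10 members therefore says little there. Genes called ran from 0 to 170 between days and from 0 to 91 between lines. Of 50 effects, 23 turned sign under some alternative. With the replicate block within each line, members called stayed at 0 in the 3 dox comparisons. Members with an unadjusted p under 0.05 went from 0 to 2 for overexpression, Gdf3 and Smad7 (limma adjusted p = 0.9999 for both), and from 0 to 1 for the difference, Gdf3 (limma adjusted p = 0.553). The SE of the Gdf3 dox effect went from 0.20 to 0.087. Over all 15950 tested genes, those with an unadjusted p under 0.05 rose as well. They went from 599 to 1941 for knockdown, from 149 to 572 for overexpression and from 340 to 1384 for the difference. After group means were removed, same-numbered arrays correlated at 0.60, 0.44 and 0.05 in the knockdown line and at 0.79 on day 5 of the overexpression line. As 1 pair, of the knockdown line, was under 0.1, the numbers were not taken as pairs in the main results of either line. The overexpression line's only check was at 0.79, a likeness that its main dox SEs leave out. With no scaling, the dox effects that turned were Smad7 at 0.0069 (knockdown), Smad2 at 0.0076 (overexpression) and Acvr1b at -0.012 (difference). With median centring, the dox effects that turned were Acvr1b at 0.041 (knockdown), Foxh1 at 0.052 (knockdown), Lefty2 at 0.052 (knockdown), Smad7 at 0.12 (knockdown), Tdgf1 at -0.024 (overexpression) and Foxh1 at 0.10 (difference). With day 5 alone in the overexpression line, the dox effects that turned were Tdgf1 at -0.00086 (overexpression), Nodal at -0.0015 (difference) and Foxh1 at 0.037 (difference). Leaving out 1 array at a time, these log2 values crossed 0. The knockdown dox effect ran for Acvr2b from -0.10 to 0.14, Acvr1b from -0.15 to 0.14, Smad7 from -0.085 to 0.075, Nodal from -0.016 to 0.17, Lefty2 from -0.18 to 0.053, Smad2 from -0.0045 to 0.11 and Foxh1 from -0.11 to 0.022. The overexpression dox effect ran for Smad2 from -0.061 to 0.030, Foxh1 from -0.083 to 0.00084, Smad7 from -0.065 to 0.40, Nodal from -0.076 to 0.15, Tdgf1 from -0.17 to 0.20, Acvr1b from -0.20 to 0.075 and Lefty1 from -0.038 to 0.61. The difference of dox effects ran for Tdgf1 from -0.070 to 0.30, Smad7 from -0.41 to 0.061, Acvr1b from -0.10 to 0.22, Acvr2b from -0.056 to 0.18, Foxh1 from -0.076 to 0.055 and Nodal from -0.069 to 0.18. The day effect ran for Foxh1 from -0.069 to 0.080. The line difference on day 4 ran for Acvr1b from -0.057 to 0.12 and Smad2 from -0.062 to 0.11. The causes were not tested.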

Other observations

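On day 4 the Lefty inhibitors and the response genes of the pathway differed between the lines in opposite directions. Lefty1, Lefty2 and Gdf3 were higher in the knockdown line, whereas 12 of 13 Nodal and Activin response genes were lower (median -0.60 beside 0.011 over all tested genes), 6 with an unadjusted p under 0.05 (11.3% of all tested genes). The epiblast and primitive streak list had 6 of 6 lower with a median of -1.26. It shares 4 measured genes with the response list, so it is no independent comparison. Whether the direction is particular to the response genes was not tested. Mixl1 was at -2.71 ± 0.77 and the LIM homeobox gene Lhx1 at -2.55 ± 0.68 (knockdown minus overexpression; limma adjusted p = 0.202 and 0.168). The Nodal inhibitor Cer1, also secreted, lay between 5.19 and 6.90 in the knockdown line and at 7.52 and 7.63 in the overexpression pair (-1.61 ± 0.56), opposite to both Lefty genes. Fst lay between 8.85 and 11.59 against 11.99 and 12.03. Limma called 0 of the genes named here after adjustment, the overexpression side is 1 pair, and the comparison was added after the data were seen.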
